A study of Homo sapiens with 6 samples.

Results

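Serine, glycine and folate enzymes were examined in NCI-H660 cells that had received either PBS or pyrvinium pamoate (PP). The 9 genes were chosen by name, as the enzymes that make serine and move its carbon through folate, and all 9 were among the 17177 symbols of the deposited table. NCI-H660 is an established cell line from neuroendocrine prostate cancer (NEPC), and the labels give its genotype as WT in every library. There were 3 libraries with PBS and 3 with PP, all of day 3, and the PP concentration for these libraries is not given in the sources used here. PP is an anthelmintic drug, and the study tried it as a candidate inhibitor of the RNA-binding protein ELAVL3. The libraries are bulk poly(A) RNA of a single cell line, so a change in the share of cells that express a gene and a change in RNA per cell cannot be told apart.

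Cells make serine from a glycolytic intermediate in the cytosol, and serine hydroxymethyltransferase then splits serine into glycine and a carbon unit carried by tetrahydrofolate. Parallel sets of folate enzymes work in mitochondria and in the cytosol. In many proliferating cells the mitochondrial set oxidises the carbon unit to formate, which leaves for the cytosol and is used there for purines and thymidylate. Several of these genes are known as targets of the stress transcription factor ATF4 in other cells.

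Among the chosen genes, all 4 mitochondrial enzymes rose with PP, whereas the cytosolic folate enzymes *SHMT1* and *MTHFD1* did not. Other folate enzymes of both compartments are given further below and are not part of this contrast. *SHMT2*, *MTHFD1L* and *ALDH1L2* rose by 2.59-fold, 2.50-fold and 7.47-fold in mean FPKM (fragments scaled to gene length and library depth), and *MTHFD2* rose by 1.32-fold. *SHMT1* fell to 0.712 of its PBS mean, and *MTHFD1* was at 0.989 of its own. In the serine synthesis pathway *PSAT1* rose by 1.66-fold and *PHGDH* by 1.13-fold, and *PSPH* was at 0.995 of its PBS mean. Each ratio compares the means of 3 libraries per treatment.

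The upstream sequences of 4 of these genes are shown because 3 of them rose and the other fell. RefSeq promoter windows (GRCh38.p14, 250 bases before and 50 after a transcript start) matched 6 of the 9 symbols, namely *PHGDH*, *PSAT1*, *SHMT1*, *MTHFD1*, *MTHFD2* and *MTHFD1L*. The start used is that of the gene for 5 of them. *MTHFD1L* has 4 windows, each with a start inside the gene, and the first one was used, whose start lies 784 bases after that of the gene. The 200 bases before the start used are printed 5′ to 3′ on the strand of the gene. Capitals mark CCAAT, TGATGNAA (a core of the elements that ATF4 and C/EBP proteins can share) and CACGTG (the E-box of MYC-type factors), each searched on both strands. The 3 motifs do not overlap one another in these windows.
PSAT1, chr9:78296925-78297124, plus strand: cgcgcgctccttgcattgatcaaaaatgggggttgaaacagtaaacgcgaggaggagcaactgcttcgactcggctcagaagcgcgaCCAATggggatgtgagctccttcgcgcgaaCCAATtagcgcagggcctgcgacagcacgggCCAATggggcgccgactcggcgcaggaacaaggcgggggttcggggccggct
MTHFD2, chr2:74198415-74198614, plus strand: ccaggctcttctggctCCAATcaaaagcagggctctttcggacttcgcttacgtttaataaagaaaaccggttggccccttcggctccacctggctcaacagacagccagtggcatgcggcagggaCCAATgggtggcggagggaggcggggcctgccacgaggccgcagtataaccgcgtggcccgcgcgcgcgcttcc
MTHFD1L, chr6:150866286-150866485, plus strand: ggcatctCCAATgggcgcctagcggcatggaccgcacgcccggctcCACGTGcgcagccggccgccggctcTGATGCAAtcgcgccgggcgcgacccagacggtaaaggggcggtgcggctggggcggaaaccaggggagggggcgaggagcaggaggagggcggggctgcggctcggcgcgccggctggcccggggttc
SHMT1, chr17:18363551-18363750, minus strand: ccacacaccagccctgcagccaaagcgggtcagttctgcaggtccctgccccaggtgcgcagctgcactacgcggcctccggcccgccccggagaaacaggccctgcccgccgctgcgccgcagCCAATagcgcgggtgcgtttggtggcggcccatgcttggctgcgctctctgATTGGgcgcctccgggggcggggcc

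CCAAT was present in the window used for each of the 6 genes, in those of genes that rose, of *SHMT1*, which fell, and of *MTHFD1*. It was present in 35.1% of the 13926 windows of tested genes and in 34.6% of all 35116 windows. *PSAT1* had 3 copies, starting 113, 83 and 52 bases before the start. TGATGNAA occurred in 1 of the 6, as TGATGCAA 129 bases before the start used for *MTHFD1L*, and in 1.88% of the windows of tested genes (3.62% of all windows). CACGTG occurred before *MTHFD1L* (154 bases) and *MTHFD1* (15 bases), and in 9.44% of the windows of tested genes (7.26% of all). Each of the 3 motifs was in 3 of the 4 windows of *MTHFD1L*, windows that overlap one another, and none was in the remaining window. These matches describe letters in the windows and were not tested as binding sites.

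The libraries held 29064253 to 32481171 counts each, as recovered from the FPKM steps. Of 9 neuroendocrine markers, 7 had a mean FPKM of at least 1, and their summed FPKM was 786 to 794 with PBS and 385 to 404 with PP. *CHGA* and *SYP* had a mean FPKM of 43.3 and 30.9 with PBS and 24.8 and 26.1 with PP, and *ELAVL3* and *MYCN* had means below 1. None of the 4 luminal prostate markers in the table had a mean FPKM of at least 1. *KLK3* and *KLK2* were not among the symbols of the deposited table. Of the stromal markers 1 of 6, and of the blood and endothelial markers 1 of 5, had a mean FPKM of at least 1. The part of the change in neuroendocrine markers in the results below was not tested.

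For each gene the PBS level was subtracted from the PP level, both as log2(FPKM + 1), and limma was fitted to the 11726 genes whose mean FPKM reached 1, the 9 enzymes included. After Benjamini-Hochberg adjustment of the limma p-values at 0.05, 6 of the 9 were higher with PP, against 38.1% of all tested genes, and 1 was lower, against 34.4%. At the cutoff that the methods give (P under 0.001, with a change of over 1 log2 unit), 3 were higher, against 2.24% of all tested genes. None was lower at this cutoff, against 2.93% of all tested genes. The PP libraries lay entirely above the PBS libraries for 6 enzymes, against 39.5% of tested genes, and entirely below for 1, against 35.5%. The median log2 fold change was 1.22 for the 4 mitochondrial enzymes and -0.006 for the 5 cytosolic ones, beside 0.02 for all tested genes. The 4 mitochondrial enzymes were all higher, and 3 of them passed the cutoff. Of the 5 cytosolic enzymes 2 were higher, 1 was lower and none passed the cutoff.

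**Figure D1:**
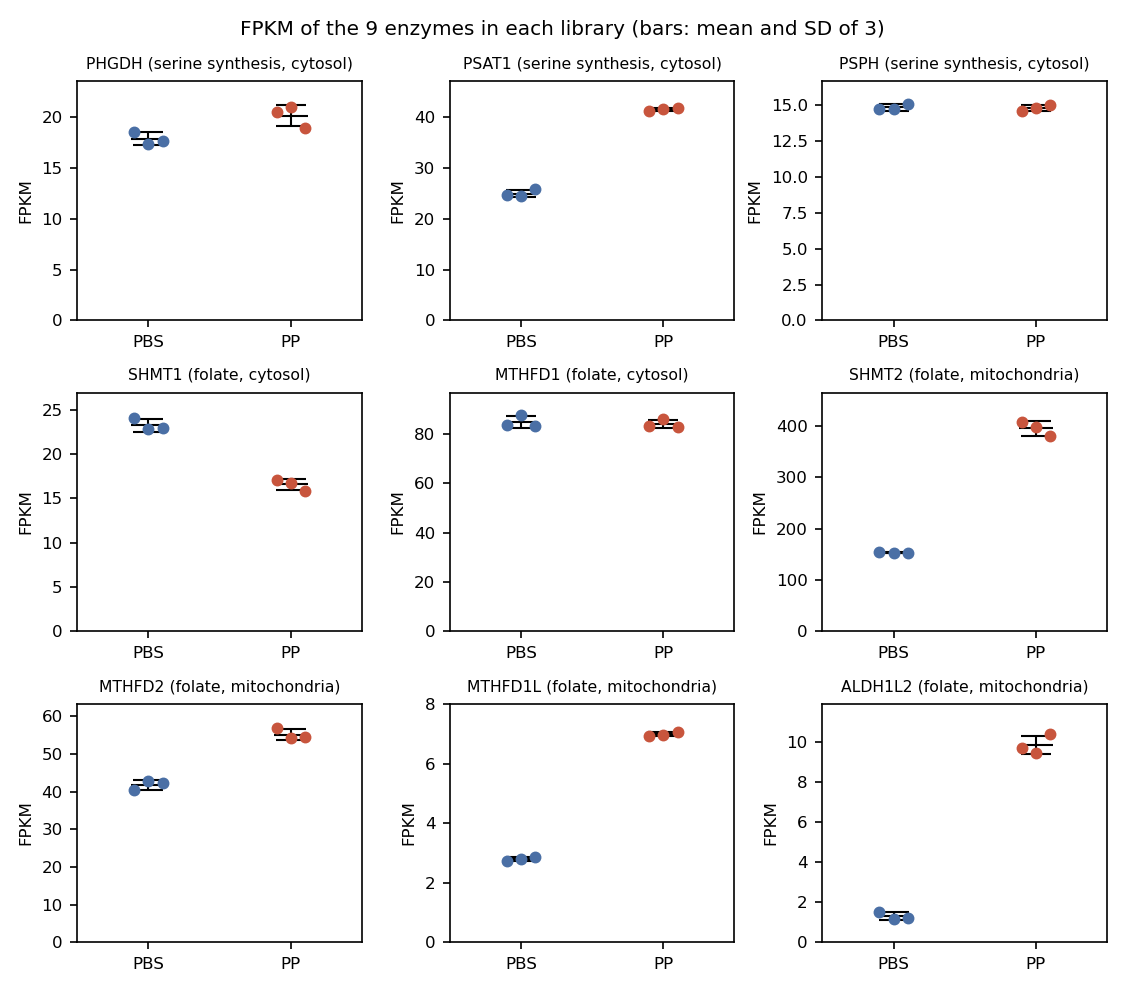
FPKM of each enzyme in the 3 PBS and 3 PP libraries (points), with the mean and SD of each treatment (bars). The FPKM axes start at 0. PP lies entirely above PBS for 6 of the 9 enzymes, against 39.5% of tested genes, and entirely below for 1, against 35.5%. The treatments overlap for *PSPH* and *MTHFD1*.

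In serine synthesis, *PHGDH* (ENSG00000092621; GRCh38.p14 chromosome 1 from 119711934 to 119744215) encodes the dehydrogenase of the first step. Its FPKM was 18.6, 17.4 and 17.7 in PBS replicates 1, 2 and 3 and 20.5, 21.0 and 19.0 in PP replicates 1, 2 and 3. Every PP library lay above every PBS library, and PP replicate 3 was nearest to them. PP minus PBS was 0.16 on the log2 scale (SE 0.05, adjusted p = 0.0117 from limma). Without PP replicate 2 it was 0.14 with an adjusted p of 0.0516 from limma, so that the call of *PHGDH* was lost.

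*PSAT1* (ENSG00000135069; chromosome 9 from 78297125 to 78330093) encodes the aminotransferase of the second step, which takes its nitrogen from glutamate. The FPKM was 24.6, 24.4 and 25.8 with PBS and 41.1, 41.5 and 41.8 with PP. The PP libraries were close to each other and well above PBS. For *PSAT1* the log2 fold change was 0.71 (SE 0.04, adjusted p = 7.38e-08 from limma).

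*PSPH* (ENSG00000146733; chromosome 7 from 56011064 to 56051444) encodes the phosphatase of the last step. Its FPKM was 14.7, 14.7 and 15.1 with PBS and 14.6, 14.8 and 15.0 with PP, and the treatments overlapped. PP minus PBS was -0.01 on the log2 scale with a 95% confidence interval from -0.10 to 0.09 (adjusted p = 0.902 from limma). Changes of *PSPH* larger than these bounds lie outside the interval. RefSeq names a pseudogene, *PSPHP1*, and reads shared with it would make the value of *PSPH* uncertain. RefSeq also names 4 pseudogenes of *PSAT1*, 7 of *MTHFD2* and 1 each of *SHMT1* and *MTHFD1*, to which the same applies.

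Among the cytosolic folate enzymes, *SHMT1* (ENSG00000176974; chromosome 17 from 18327873 to 18363550) encodes the cytosolic serine hydroxymethyltransferase. The FPKM was 24.1, 22.8 and 22.9 with PBS and 17.1, 16.8 and 15.9 with PP. All 3 PP libraries lay below all 3 PBS libraries. For *SHMT1* the log2 fold change was -0.47 (SE 0.04, adjusted p = 5.93e-06 from limma), and it was the 1 enzyme of the 9 that fell.

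*MTHFD1* (ENSG00000100714; chromosome 14 from 64388353 to 64460025) encodes the cytosolic protein that joins formate to tetrahydrofolate and interconverts the folate-bound forms. Its FPKM was 83.6, 87.6 and 83.0 with PBS and 83.0, 85.8 and 82.7 with PP. The treatments overlapped, with PBS replicate 2 the highest library. PP minus PBS was -0.02 on the log2 scale with a 95% confidence interval from -0.09 to 0.06 (adjusted p = 0.716 from limma).

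In the mitochondrial set, *SHMT2* (ENSG00000182199; chromosome 12 from 57229711 to 57234935) encodes the mitochondrial serine hydroxymethyltransferase, which supplies the pathway with its carbon. Its FPKM was 154, 153 and 152 with PBS and 409, 398 and 380 with PP. It was the highest of the 9 enzymes in every library, with 12021 to 12734 counts per PBS library and 32198 to 33620 per PP library. The log2 fold change of *SHMT2* was 1.36 (SE 0.03, adjusted p = 3.74e-10 from limma), rank 107 from the top among the 11726 tested genes.

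*MTHFD2* (ENSG00000065911; chromosome 2 from 74198615 to 74217565) encodes the mitochondrial enzyme that oxidises the carbon unit taken from serine. The FPKM was 40.4, 42.9 and 42.2 with PBS and 56.8, 54.1 and 54.4 with PP. The treatments did not overlap, but the difference was the smallest of the mitochondrial set. The log2 fold change of *MTHFD2* was 0.39 (SE 0.04, adjusted p = 7.25e-06 from limma).

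*MTHFD1L* (ENSG00000120254; chromosome 6 from 150865702 to 151101887) encodes the mitochondrial synthetase that releases formate. Its FPKM was 2.73, 2.81 and 2.88 with PBS and 6.94, 6.97 and 7.08 with PP. The spread within each treatment was far smaller than the gap between them, with 1095 to 1196 and 2802 to 3086 counts per library. The log2 fold change of *MTHFD1L* was 1.07 (SE 0.05, adjusted p = 4.25e-08 from limma), rank 219.

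*ALDH1L2* (ENSG00000136010; chromosome 12 from 105019790 to 105084458) encodes the mitochondrial enzyme that oxidises the formyl group on folate to carbon dioxide and forms NADPH. Its FPKM was 1.54, 1.19 and 1.24 with PBS and 9.74, 9.49 and 10.4 with PP. The PBS libraries held 280 to 385 of its counts and the PP libraries 2311 to 2741. It was the lowest of the 9 enzymes with PBS, and every PP library was above every PBS library. The log2 fold change of *ALDH1L2* was 2.23 (SE 0.07, adjusted p = 1.92e-09 from limma), rank 17 of all tested genes. On this scale the pseudocount of 1 shrinks low genes, and with a pseudocount of 0.1 the value was 2.82.

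**Figure D2:**
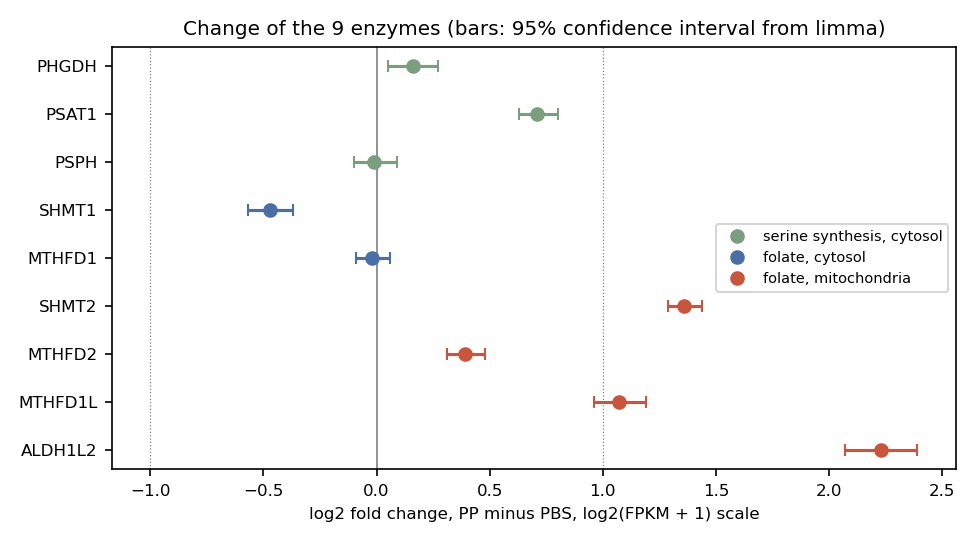
Log2 fold change of each enzyme with PP relative to PBS, computed from log2(FPKM + 1), with the 95% confidence interval from limma (bars) and dotted lines at -1 and 1. The intervals of the 4 mitochondrial enzymes lie above 0, that of *SHMT1* lies below 0, and those of *PSPH* and *MTHFD1* include 0.

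Mitochondrial enzymes were then compared with their cytosolic counterparts within each library, as the log2 ratio of FPKM + 1. The ratio of *SHMT2* to *SHMT1* was 2.62, 2.70 and 2.68 with PBS and 4.51, 4.49 and 4.50 with PP, a difference of 1.83. The ratio of *MTHFD1L* to *MTHFD1* was -4.50, -4.54 and -4.44 with PBS and -3.40, -3.44 and -3.37 with PP, a difference of 1.09. For *MTHFD2* over *MTHFD1* it was -1.03, -1.01 and -0.96 with PBS and -0.54, -0.65 and -0.59 with PP, a difference of 0.41. In these 3 pairs the PP libraries lay entirely above the PBS libraries. The exact permutation test, two-sided, gave p = 0.1 for each pair, which is the smallest p that 3 libraries against 3 allow, and 0.1 after adjustment over the 4 pairs, *ALDH1L2* over *ALDH1L1* included.

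*SHMT2* made up 86.8% ± 0.330 of the summed FPKM of *SHMT1* and *SHMT2* in the PBS libraries and 96.0% ± 0.0202 in the PP libraries (SD, n = 3 each). The share of *MTHFD1L* in its sum with *MTHFD1* was 3.21% ± 0.13 with PBS and 7.71% ± 0.186 with PP (SD, n = 3 each). *ALDH1L1*, the cytosolic counterpart of *ALDH1L2*, was below the filter at 0.0467 to 0.148 FPKM with PBS and 0.169 to 0.411 with PP. The log2 ratio of *ALDH1L2* to *ALDH1L1* was 1.28, 0.93 and 1.04 with PBS and 3.20, 2.89 and 3.17 with PP, which is mostly the change of *ALDH1L2*, since *ALDH1L1* + 1 stays close to 1. The share of *ALDH1L2* in the summed FPKM of both, which uses no pseudocount, was 97.1%, 88.9% and 93.1% with PBS and 98.3%, 95.8% and 97.5% with PP, and the treatments overlapped. *ALDH1L1* itself rested on 5 to 15 counts per PBS library and 18 to 43 per PP library, and its mean FPKM with PP was 2.95 times that with PBS. The summed FPKM of the 4 mitochondrial enzymes was 198 to 200 with PBS and 452 to 483 with PP. That of *SHMT1* and *MTHFD1* was 106 to 110 with PBS and 98.5 to 103 with PP. *SHMT2* alone held 76.9% of the mitochondrial sum with PBS and 84.6% with PP.

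**Figure D3:**
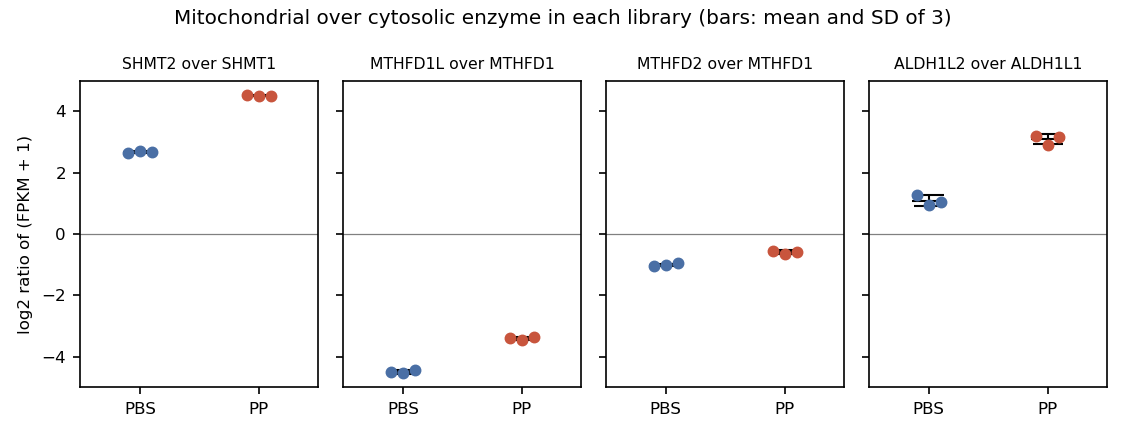
Log2 ratio of FPKM + 1 between a mitochondrial enzyme and its cytosolic counterpart in each PBS and PP library (points), with the mean and SD of each treatment (bars). PP lies above PBS by 1.83 for *SHMT2* over *SHMT1* and by 0.41 for *MTHFD2* over *MTHFD1*. The gap for *ALDH1L2* over *ALDH1L1* is 2.01, and 1.87 with a pseudocount of 0.1. The plain shares of *ALDH1L2*, which use no pseudocount, overlap.

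Levels were compared between the enzymes on a per-length scale. In deposited FPKM the order with PBS was *SHMT2*, *MTHFD1*, *MTHFD2*, *PSAT1*, *SHMT1*, *PHGDH*, *PSPH*, *MTHFD1L* and *ALDH1L2*, and no neighbours in it overlapped. With PP *PHGDH* stood above *SHMT1* and *ALDH1L2* above *MTHFD1L*, again without overlap of neighbours. The gene length that the FPKM values imply was 7393 bases for *PHGDH* and 13413 bases for *MTHFD1L*, which is 3.96 and 3.89 times their canonical GENCODE transcripts of 1866 and 3451 bases. For the other 7 enzymes this quotient was 1.01 to 1.61, so the FPKM levels of *PHGDH* and *MTHFD1L* stand low beside the others.

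In counts per kilobase of the canonical transcript, scaled to library totals, a scale chosen after seeing the data, *PHGDH* was at rank 3 of the 9 with PBS (a mean of 70.9) and *MTHFD1L* at rank 8 (10.9). On this scale *PSAT1*, *SHMT1* and *PSPH* overlapped as neighbours with PBS, at 25.1, 24.4 and 23.8. With PP, *MTHFD1L* at 27.2 stood above *PSPH* at 23.7 and *SHMT1* at 17.4. The share of *MTHFD1L* in its sum with *MTHFD1* was 11.3% with PBS and 24.3% with PP on this scale. Ratios of mean levels of single enzymes between treatments are the same on both scales, since the length of a gene cancels. It does not cancel in the log2 fold changes, which use FPKM + 1. That of *MTHFD1L*, 1.07, was 1.29 with a pseudocount of 0.1.

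Of 51 other genes of serine, glycine, folate and methionine metabolism, 41 were tested, of which 18 were higher and 13 lower with PP at an adjusted p under 0.05 from limma, and 10 did not pass. These shares can be read against the 38.1% and 34.4% of all tested genes. Their median log2 fold change was 0.10, beside 0.39 for the 9 enzymes.

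The genes for uptake of serine and glycine were higher in 4 of 4, against 38.1% of all tested genes. *SLC6A9*, the glycine transporter GlyT1, had an FPKM of 4.12, 3.89 and 3.87 with PBS and 17.3, 20 and 17.7 with PP (log2 fold change 1.96, SE 0.06, adjusted p = 1.48e-09 from limma). *SLC1A4*, a carrier of serine and alanine, rose by 1.65-fold (log2 fold change 0.70). Of the serine carriers of the inner mitochondrial membrane, none of 3 was higher and 2 were lower, against 38.1% and 34.4% of all tested genes. The lower carriers were *SFXN1* at -0.39 and *SFXN3* at -0.28 on the log2 scale.

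Among genes that move or retain folate, 2 of 6 tested were higher and 3 lower, against 38.1% and 34.4% of all tested genes. *FOLR1*, a folate receptor, fell to 0.25 of its PBS mean (log2 fold change -1.31, adjusted p = 4.29e-07 from limma), from 114 to 139 counts per library to 27 to 39. The PP mean of *FOLR1*, 0.989, was under the filter of 1, so it was tested only because of its PBS values. *GGH*, which trims the glutamate tail of folates, fell from an FPKM of 48.4 ± 0.370 to 25.4 ± 1.17 (SD, n = 3 each). *SLC25A32*, the carrier that brings folate into mitochondria and a gene singled out after its values were seen, rose from 16.3 ± 0.117 to 27.2 ± 0.801 (SD, n = 3 each, log2 fold change 0.71).

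*TYMS*, which makes thymidylate, had a log2 fold change of -0.52 (adjusted p = 5.6e-07 from limma), from 147 ± 3.12 FPKM with PBS to 102 ± 3.75 with PP (SD, n = 3 each). *GART* and *ATIC*, which use formyl folate in purine synthesis, rose by 0.19 and 0.17 (adjusted p = 0.00154 and 0.00105 from limma). Of the cytosolic folate genes of the list with a mean FPKM of at least 1, 2 of 3 were lower and 1 did not pass. Of all tested genes, 34.4% were lower. *ALDH1L1*, below that filter, had a log2 fold change of 0.22 in a fit with a minimum mean FPKM of 0.1. Its mean was 0.0957 with PBS, under that minimum, and 0.282 with PP. It thus entered that fit only through its PP values, and no call is taken from it. Of the other mitochondrial folate genes, *MTHFD2L*, a close relative of *MTHFD2*, did not pass (log2 fold change 0.10, adjusted p = 0.315 from limma). *MTFMT*, which formylates the initiator tRNA of mitochondria, was higher by 0.14 (adjusted p = 0.0426 from limma), but it did not pass with median-ratio scaling (0.12, adjusted p = 0.0738 from limma), the replicate block (adjusted p = 0.0716 from limma) or limma-voom on recovered counts (adjusted p = 0.186), nor when any of 5 of the 6 libraries was left out.

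In glycine cleavage, which takes the carbon of glycine into mitochondrial folate, 1 of 4 genes was lower and 3 did not pass. Of all tested genes, 34.4% were lower. *GLDC*, its glycine decarboxylase, had an FPKM of 3.72, 2.58 and 3.26 with PBS and 0.941, 0.947 and 0.945 with PP (log2 fold change -1.10, adjusted p = 2.91e-06 from limma). The PP values of *GLDC* lay under the filter of 1, so it was tested only because of its PBS values. *DMGDH*, a mitochondrial dehydrogenase of dimethylglycine, rose with PP from 0.675 ± 0.118 to 4.09 ± 0.338 FPKM (SD, n = 3 each, log2 fold change 1.60). The PBS mean of *DMGDH* was under the filter of 1, so it was tested only because of its PP values. *CHDH*, which oxidises choline, fell by 0.43 on the log2 scale.

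In the methionine cycle 3 of 6 genes were higher and 2 lower, against 38.1% and 34.4% of all tested genes. *MTRR*, which reactivates methionine synthase, rose by 0.33 and *AHCY*, which splits S-adenosylhomocysteine, fell by 0.59 on the log2 scale. Both transsulfuration genes, which lead from homocysteine and serine to cysteine, were higher. *CTH* had an FPKM of 0.802 ± 0.0342 with PBS and 2.59 ± 0.290 with PP (SD, n = 3 each, log2 fold change 0.99). The PBS mean of *CTH* was under the filter of 1, so it was tested only because of its PP values. *CBS* had 0.672, 1.26 and 1.33 with PBS and 8.73, 9.45 and 2.20 with PP (log2 fold change 1.74, adjusted p = 0.00162 from limma), with PP replicate 3 far below the other PP libraries. With 1 library left out the value of *CBS* ranged from 1.43 without PP replicate 2 to 2.29 without PP replicate 3. The table also lists *CBSL*, a near-identical copy, so the value of *CBS* is uncertain, and the sum of both was 1.13 to 1.81 with PBS and 10.2, 9.59 and 4.30 with PP. Of 6 tested genes that use serine or glycine, 3 were higher and 2 lower, beside the same shares of all tested genes. *SDSL*, a serine dehydratase-like enzyme, was at 0.75 and *SPTLC2*, a subunit of serine palmitoyltransferase, at -0.55 on the log2 scale.

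**Figure D4:**
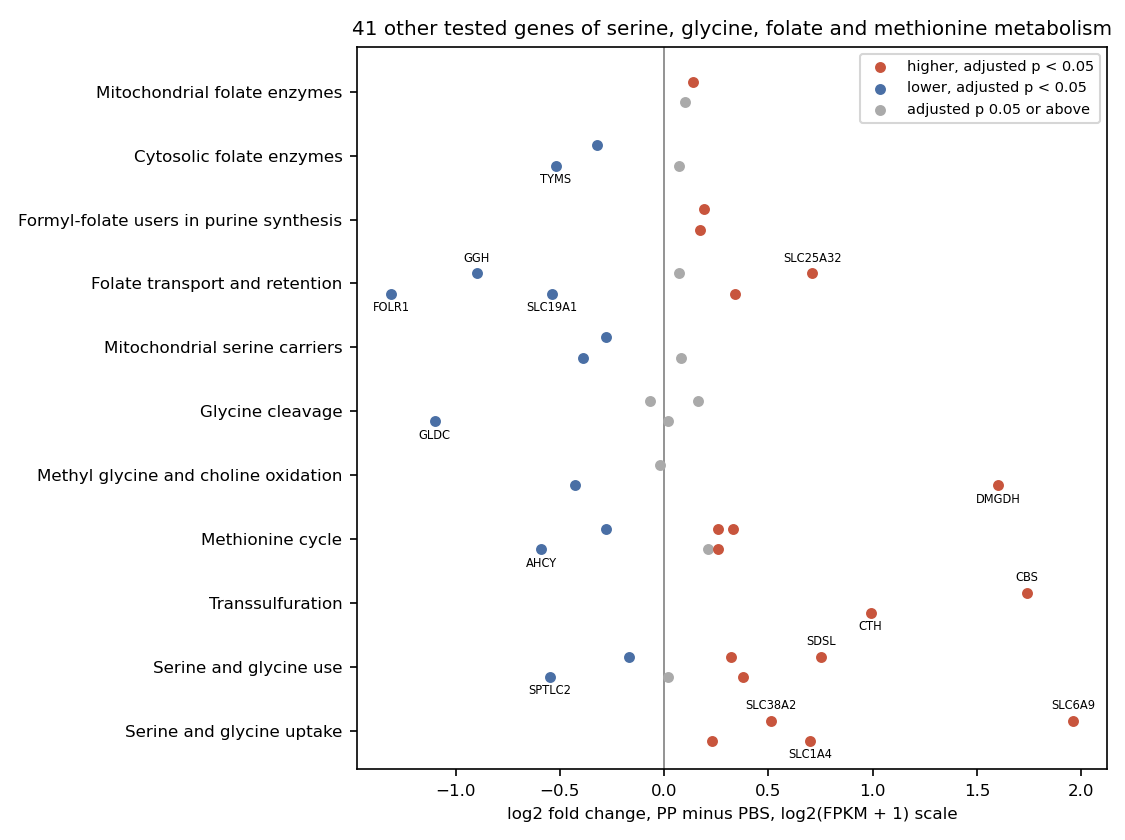
Log2 fold change, PP minus PBS, of the 41 other tested genes by role, coloured by their call at an adjusted p of 0.05 from limma, with names where the change is above 0.45 or below -0.45. The 4 uptake genes lie above 0, and the 2 coloured serine carriers lie below it. Of all tested genes, 38.1% were called higher and 34.4% lower.

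The profile of each enzyme over the 6 libraries, as log2 differences from its PBS mean, was set beside those of all other tested genes. The nearest to *SHMT2* were *GTPBP2* and *LHX3*, at a root mean square distance of 0.033 and 0.034 log2 units over the 6 libraries. Those nearest to *ALDH1L2* were *TSLP* and *ANXA1*, at 0.071 and 0.088. *PRKD1* and *VEGFA* were nearest to *MTHFD1L* (0.017 and 0.027), *SNRK* and *GHITM* to *PSAT1* (0.017 and 0.024), and *MOV10* and *RPS15A* to *MTHFD2* (0.020 and 0.021). *SMIM30* and *FAAH* were nearest to *SHMT1* (0.016 and 0.021), and *PARP3* and *ECSIT* to *PHGDH* (0.016 and 0.022). For *PSPH* they were *MPDZ* and *WDR7* (0.011 and 0.013), and for *MTHFD1* they were *IER2* and *BRPF3* (0.016 for both). None of the 9 enzymes was among the 2 nearest of another.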

How the data were processed

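RNA was extracted with TRIzol and sequenced as paired-end reads from TruSeq stranded mRNA libraries. The authors deposited FPKM values of 17177 gene symbols. The methods name hg19, Bowtie, RSEM, Cufflinks and HTSeq, and the submitters' processing notes name GRCh38, fastp, HISAT2 and HTSeq. The table lists 5 gene copies (*CBSL*, *U2AF1L5*, *SIK1B*, *GATD3B* and *KCNE1B*) known from annotations of GRCh38. GENCODE mapped to GRCh37 lacks all 5, but so does the RefSeq annotation of GRCh38.p14 used here. Of the 17177 symbols, 16863 were in that RefSeq annotation and 16897 in GENCODE mapped to GRCh37. The symbols thus do not settle the build. GRCh38.p14 coordinates from RefSeq are given because the processing notes name GRCh38.

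Whole counts were recovered from the FPKM steps (tolerance 0.01 of a count) for the 16909 genes above 0, with Python 3.11.15 and numpy 2.4.6. Library totals were 29064253 to 32481171, and genes with few counts have less precise values. Values were tested as log2(FPKM + 1) in R 4.3.3, where limma 3.58.1 supplied lmFit and a trended eBayes, after a filter of a mean FPKM of at least 1, and adjusted by the Benjamini-Hochberg method over 11726 genes. Ratios of pairs had exact permutation tests (scipy 1.17.1). The limma fit was tested on simulated counts, in which far fewer genes changed than were called here.

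The legends of the paper call the samples independent, the methods give 2 per group, and 6 libraries are labelled. P-values measure the spread between these libraries. Members, lists and tests were chosen with earlier results of these data known. Named were the 9 enzymes, in each role of the wider list the genes past the cutoff and the 2 with the largest changes at an adjusted p under 0.05, and the 2 genes with the nearest profile to each enzyme. Some genes that this rule names are not reported here. Alternatives varied the pseudocount, filter, scaling, trend, block, libraries and the use of recovered counts (limma-voom). Canonical transcript lengths were added after seeing the data.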

Additional observations from a re-analysis of the deposited data

How the results depend on the processing

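The counts of enzymes called, 6 higher and 1 lower at an adjusted p under 0.05 and 3 and 0 at the cutoff, were the same under all but 2 of the 13 alternatives to the fit. With a mean FPKM of at least 5, *MTHFD1L* was not tested (5 higher, 2 at the cutoff), and without PP replicate 2 *PHGDH* did not pass (5 higher, 0.14, adjusted p = 0.0516 from limma). *PSPH* and *MTHFD1*, which did not pass, changed sign, *PSPH* to 0.007 without PBS replicate 3 and 0.003 without PP replicate 1, and *MTHFD1* to 0.009 without PBS replicate 2. With 1 library left out, *PSPH* ranged from -0.02 to 0.007 and *MTHFD1* from -0.03 to 0.009. The median of the 5 cytosolic enzymes, -0.006, was 0.01 without PBS replicate 2 or 3. The median log2 fold change of the mitochondrial enzymes, 1.22, was 1.33 with a pseudocount of 0.1, 1.36 with a mean FPKM of at least 5 (3 enzymes), 1.20 with median-ratio scaling and 1.32 with limma-voom on recovered counts. With limma-voom that of *SHMT1* and *MTHFD1*, -0.24, was -0.28. Over all tested genes, 344 were lower at the cutoff, 531 with a pseudocount of 0.1 and 581 with limma-voom. Per kilobase of the canonical transcript, 5 of the 9 enzymes kept their rank of level with PBS and 3 with PP. The causes were not tested, apart from the smaller pseudocount, the smaller set of genes and the gene lengths that these alternatives use by construction.

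Samples were not paired by their replicate numbers, since deviations from the group means correlated at -0.21, -0.014 and -0.13 between libraries of the same number. With the replicate block, 6 enzymes were higher and 1 lower at an adjusted p under 0.05. Low counts limit *ALDH1L2* with PBS, with 280 to 385 per library.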
